A study of Mus musculus with 7 samples.

Results

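The OPC cluster comprised the oligodendrocyte progenitor cells (OPCs) among fluorescence-sorted oligodendrocyte lineage cells (OLCs) of the adult mouse cortex. Its members were the cells that the authors' annotation named OPC, without the separate cluster of cycling OPCs. They numbered 1304 of the 9291 cells in 11 clusters that remained after the study's filter on 10081 barcodes.

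The study asked how OLCs of dorsal and ventral forebrain origin differ and what happens to ventral cells when dorsal cells are ablated. All mice carried Emx1-Cre, in which Cre is active in the dorsal forebrain lineage, and a reporter under the Sox10 promoter, which is active throughout the oligodendrocyte lineage. Control dOLCs were TdTom+ cells and control vOLCs were GFP+ cells of Emx1-Cre:Sox10-GFP-TdTom mice, whereas ectopic vOLCs were GFP+ cells of mice with a further allele, Sox10-GFP-DTA, through which diphtheria toxin fragment A kills recombined cells. Mice of both sexes on a C57BL/6-B6CBA background were analysed at P90, given as 11 to 14 weeks, and the labels name motor and cingulate cortex as the tissue, where the methods speak of neocortex. The ablation leaves some dOLCs in place. The protocol gives 4 control and 2 ablated mice, which are not told apart within a library. The submitters set aside another cohort because of batch effects attributed to stress during sorting. Each condition therefore rests on 1 library, without a measure of the spread between mice. No test between conditions was possible. The intervals below are 95% exact binomial intervals that cover counting error only.

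OPCs divide, carry the receptor for platelet-derived growth factor and the proteoglycan NG2, and give rise to myelinating oligodendrocytes throughout life. On the way they pass through a short committed stage (COP), in which progenitor genes are switched off before myelin genes reach their full level. They also receive synapses from neurons, which they sense through neurotransmitter receptors and ion channels.

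OPCs made up 853 of 5804 cells (14.7%, 13.8 to 15.6) of control dOLCs, 121 of 925 (13.1%, 11.0 to 15.4) of control vOLCs and 330 of 2562 (12.9%, 11.6 to 14.2) of ectopic vOLCs. The 3 intervals overlapped. For brevity, these cells are called control dOPCs, control vOPCs and ectopic vOPCs. Their unique molecular identifiers (UMIs), each standing for 1 captured transcript, summed to 2625452, 394731 and 1202197. The median per cell was 2795, 3454 and 3421.5 UMIs, below the 3658, 5313.5 and 5660.5 UMIs of the other cells of the same library. Control vOPCs thus rested on the fewest UMIs, and control dOPCs were the shallowest per cell. The median share of mitochondrial UMIs was 4.39%, 4.56% and 4.28% in OPCs and 6.93%, 6.89% and 6.32% in the other cells. No cell barcode was shared between OPCs of different libraries, against between 6 and 24 barcodes shared among all cells of each pair of libraries.

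The 5 genes that mark OPCs in this annotation were Pdgfra, the platelet-derived growth factor receptor; Cspg4, which encodes NG2; Ptprz1, a receptor phosphatase; Vcan, the matrix proteoglycan versican; and Lhfpl3, a membrane protein gene. Levels are given as UMIs per 1000000 of the summed UMIs (CPM), in the order control dOPCs, control vOPCs and ectopic vOPCs. Pdgfra was at 1450, 2174 and 1362 CPM in OPCs and at 26.7, 21.3 and 10.8 CPM in the other cells, a log2 ratio of 5.76 (5.63 to 5.89), 6.67 (6.36 to 6.99) and 6.97 (6.72 to 7.23). Cspg4 was at 597, 811 and 613 CPM, with log2 ratios to the other cells of 5.59, 6.86 and 6.78. Ptprz1, at 3048, 3737 and 2960 CPM, had log2 ratios of 5.84, 6.51 and 6.47. All 3 genes had their highest level in control vOPCs. Vcan was at 901, 856 and 792 CPM, and Lhfpl3 at 712, 692 and 895 CPM. The annotation was made from these cells and their genes, so these values describe the cluster and are no test of it.

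Summed over the 5 markers, OPCs held 6708, 8269 and 6623 CPM, against 124, 83.8 and 65.6 CPM in all other cells. Cycling OPCs held 8735, 12249 and 6113 CPM. The cluster named COP/NFOL/MFOLa, which joins committed and newly formed cells, held 453, 666 and 335 CPM. Among the 8 clusters of more mature cells, the sum was highest in MFOLb, at 384, 580 and 219 CPM. The marker sum therefore separated the 2 OPC clusters from the other 9 by more than the counting intervals in every library.

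**Figure D1:**
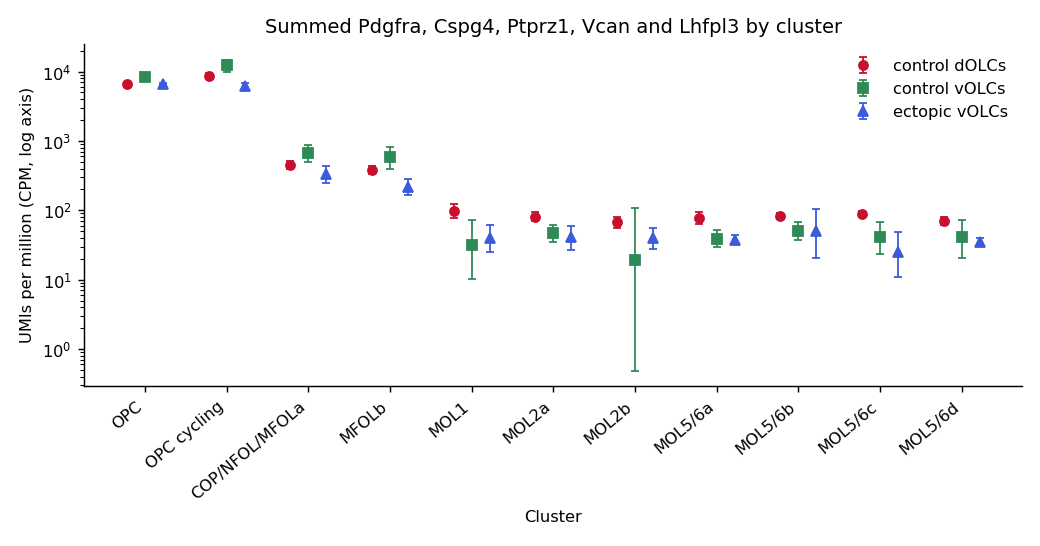
Summed level of Pdgfra, Cspg4, Ptprz1, Vcan and Lhfpl3 (CPM, log axis) in the 11 annotated clusters, with 1 point per library and 95% counting intervals. OPCs (6708, 8269 and 6623 CPM) and cycling OPCs sit above COP/NFOL/MFOLa (453, 666 and 335 CPM), MFOLb and the mature clusters in all 3 libraries.

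In single cells the markers were found together. Every OPC had a UMI of at least 2 of the 5 markers, and 98.4%, 99.2% and 99.4% of OPCs had at least 3, against 0.970%, 0.995% and 0.806% of the other cells, which were the deeper ones. With every cell thinned to 1000 UMIs, the shares were 75.9%, 81.8% and 74.8% of OPCs and 0.384%, 0.498% and 0.403% of other cells. A UMI of Pdgfra was found in 96.5%, 96.7% and 98.5% of OPCs and in 7.11%, 6.09% and 3.54% of other cells.

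Against all other cells of the same library, 782 of 5901 genes (13.3%) were at least 4-fold higher in OPCs of control dOLCs with an interval that excluded no difference, and 148 (2.51%) were at least 4-fold lower. In control vOLCs, 629 of 6301 genes (9.98%) were higher and 397 (6.3%) lower, and in ectopic vOLCs 1057 of 6650 genes (15.9%) were higher and 330 (4.96%) lower. Of the 5452 genes past the filter in all 3 libraries, 463 were higher in all 3, 142 were lower in all 3, and 0 went in opposite directions between libraries. The genes called in control dOPCs were largely called in the other libraries too, but for lower genes the reverse did not hold. Over genes measured in both libraries, the 477 shared with control vOPCs were 96.0% of the control dOPC genes and 82.5% of the control vOPC genes, and the 744 shared with ectopic vOPCs were 98.0% and 86.2%. For lower genes, the 144 shared with control vOPCs were 97.3% of the control dOPC genes but 38.8% of the control vOPC genes, and the 145 shared with ectopic vOPCs were 98.6% and 45.7%. Across genes, which are not independent replicates and share the depth and the composition of each library, the log2 ratios had a Pearson correlation of between 0.95 and 0.98 for the 3 pairs of libraries.

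The scale matters for the balance of these counts. OPCs hold little myelin RNA, which takes 13.8%, 15.7% and 15.5% of the UMIs of the other cells, and the median log2 ratio over all genes was 0.34, 0.27 and 0.57. With edgeR's TMM factors that median was -0.31, -0.45 and -0.33, and the counts were 625 higher and 415 lower in control dOPCs, 407 and 705 in control vOPCs, and 764 and 621 in ectopic vOPCs. The share of higher genes among those called was then 60.1%, 36.6% and 55.2%, against 84.1%, 61.3% and 76.2%. The ratios below are on the CPM scale and are to be read against these medians.

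Fam19a1, which encodes a secreted protein of the brain, headed the genes most enriched in OPCs, ranked by the weakest of their 3 ratios. It was at 144, 205 and 161 CPM in OPCs and at 1.42, 0.225 and 0.840 CPM elsewhere, a log2 ratio of 6.66 (6.12 to 7.26), 9.84 (7.32 to 15.16) and 7.58 (6.71 to 8.60). The second of these rests on 1 UMI in the other cells of control vOLCs. Next came Sstr1, a somatostatin receptor gene, at 147, 142 and 171 CPM with ratios of 6.55, 8.30 and 7.22. Adm, encoding the vasodilator peptide adrenomedullin, was at 76.9, 185 and 57.4 CPM with ratios of 6.23, 8.10 and 6.23. Nxph1, which encodes a secreted ligand of neurexins, was detected in 76.8%, 85.1% and 82.7% of OPCs, at 563, 740 and 600 CPM and with ratios of 6.07, 7.36 and 7.11.

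Also among the 20 most enriched genes were receptors, channels and adhesion molecules. Nrxn3, a presynaptic adhesion molecule, was at 162, 213 and 162 CPM, and Lrrtm1, a postsynaptic adhesion molecule, at 106, 129 and 114 CPM. Gria3, an AMPA receptor subunit, was at 266, 362 and 220 CPM, with ratios of 6.02, 7.66 and 6.79. Grm5, a metabotropic glutamate receptor, was at 132, 144 and 137 CPM, with ratios of 6.08, 6.74 and 6.64. All 4 had their highest level in control vOPCs, and none passed 2-fold between OPCs of any 2 libraries. The remainder included Ntrk3, the receptor for neurotrophin 3, Kcnk2, a background potassium channel, Slc7a3, a transporter of cationic amino acids, and Chl1, an adhesion molecule related to L1. Their ratios lay between 5.87 and 7.70 over the 3 libraries. Cyr61, a matrix-associated signalling protein, had nearly the same ratio in each, at 6.23, 6.21 and 6.27. Meg3, a noncoding RNA counted here among neuron markers, was at 1026, 1186 and 1114 CPM, with ratios of 6.21, 7.91 and 7.44.

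**Figure D2:**
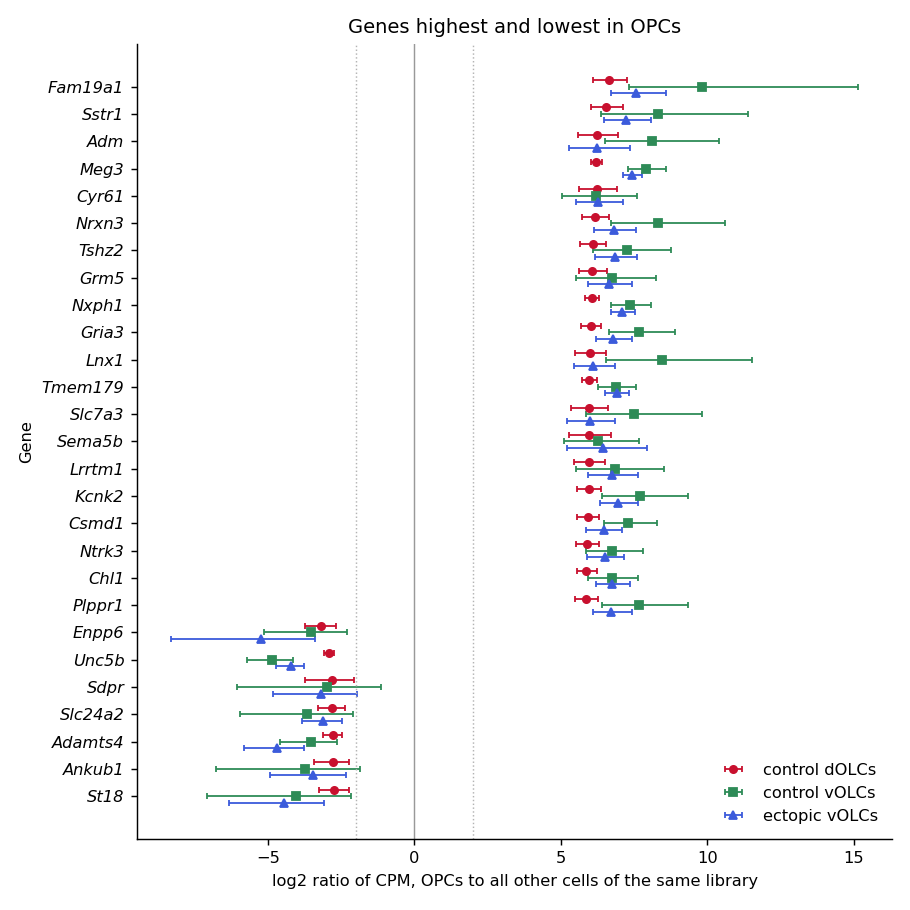
Log2 ratio of CPM in OPCs to CPM in all other cells of the same library for the 20 genes with the highest and 7 of the 8 with the lowest weakest ratio over the 3 libraries, with 95% counting intervals and dotted lines at 4-fold. Fam19a1 (6.66, 9.84 and 7.58) stands at the top, and Unc5b (-2.92, -4.87 and -4.22) lies closer to no difference in control dOLCs than in the other 2 libraries.

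The genes lowest in OPCs belonged to the oligodendrocytes that follow. Enpp6, a choline phosphodiesterase gene that marks newly forming oligodendrocytes, was at 12.2, 12.7 and 1.66 CPM in OPCs and at 111, 146 and 63.6 CPM elsewhere, and was found in 3.40%, 4.13% and 0.606% of OPCs. Unc5b, a netrin receptor gene, was at 93.3, 38.0 and 32.4 CPM, with ratios of -2.92, -4.87 and -4.22. Unc5b thus had its highest level in control dOPCs and close levels in the other 2. St18, a zinc finger transcription factor gene, was at 13.0, 5.07 and 3.33 CPM, and Adamts4, a protease that cleaves proteoglycans, at 29.7, 25.3 and 7.49 CPM.

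Surface and identity genes of OPCs beyond the 5 markers, listed in the knowledge of earlier results as all lists here, were higher than elsewhere for 26 of 29 genes in control dOPCs, 24 of 27 in control vOPCs and 26 of 29 in ectopic vOPCs, where 13.3%, 9.98% and 15.9% of all genes were. Their median log2 ratios of 4.78, 5.40 and 5.66 compare with 0.34, 0.27 and 0.57 over all genes. All lists are counted over genes past the filter, which a gene can pass through its detection in OPCs alone. Cspg5, the proteoglycan neuroglycan C, was at 3907, 5019 and 4348 CPM and was found in every OPC. C1ql1, a secreted protein related to complement C1q, was at 2474, 3103 and 2852 CPM, with ratios of 5.39, 6.66 and 6.54. Not all genes of the list were particular to OPCs at this fold. Cd9 and Pllp, which encode membrane proteins, were at 2564, 2594 and 2339 CPM and at 2093, 2245 and 2261 CPM, with ratios between 0.05 and 0.79.

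The transcription factors of the lineage were less uniform. Of 26, 21 and 26 genes measured, 10, 4 and 11 were at least 4-fold higher in OPCs and 1, 2 and 2 lower, with medians of 1.22, 1.38 and 1.67. Over all genes 13.3%, 9.98% and 15.9% were higher and 2.51%, 6.3% and 4.96% lower. Those higher in all 3 libraries included Sox4, Sox6 and Etv4, of which Sox6, a factor that holds back differentiation, was at 268, 291 and 272 CPM with ratios of 5.13, 5.64 and 6.37. Myrf, which drives myelin gene transcription, was lower in all 3, at 67.8, 43.1 and 29.9 CPM. Olig1, one of the pair of factors that specify the lineage, was at 4691, 5730 and 5657 CPM and Olig2, the other, at 1097, 1322 and 1503 CPM. Of these ratios, only that of Olig2 in ectopic vOPCs, at 2.21, passed 4-fold. Sox10, which is expressed from OPC to oligodendrocyte and whose promoter drives the reporter, was at 529, 489 and 506 CPM, with ratios of 0.13, 0.37 and 0.51. Sox4, Sox6, Etv4 and Myrf were named after their values were seen.

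Genes of the Id, Hes and Notch group, which restrain differentiation, were higher in OPCs for 9 of 10, 7 of 8 and 10 of 12 genes, against 13.3%, 9.98% and 15.9% of all genes, with 0 lower in any library and medians of 4.57, 5.41 and 4.75. That list held 21 genes, of which the rest did not pass the filter. Hes5, a Notch target, was at 477, 618 and 464 CPM with ratios of 5.03, 6.22 and 6.03. Hes1, another Notch target, was at 171, 187 and 212 CPM, and Id2, an inhibitor of basic helix-loop-helix factors, at 156, 228 and 204 CPM. Notch1, a receptor of the pathway, was at 127, 142 and 121 CPM with ratios of 4.11, 4.78 and 5.24. Among growth factor receptors and their feedback genes, 9 of 17, 8 of 15 and 10 of 16 were higher, to be read against the same shares, with medians of 2.22, 2.44 and 2.90. Fgfr2, a fibroblast growth factor receptor gene, was the 1 lower gene of that list in each library, at 76.6, 55.7 and 27.4 CPM in OPCs and 330, 321 and 261 CPM elsewhere.

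Receptors for glutamate and GABA were higher in OPCs for 10 of 12, 8 of 10 and 11 of 13 genes, against 13.3%, 9.98% and 15.9% of all genes, with medians of 3.63, 3.06 and 4.44. The list held 32 genes, of which the rest did not pass the filter. A gene can pass it by its detection in OPCs alone, so these fractions do not stand for the whole list. Grm3, a metabotropic glutamate receptor, was lower in all 3 libraries. Gria2, the AMPA receptor subunit that limits calcium entry, was at 1063, 1500 and 801 CPM and was detected in 93.2%, 95.9% and 93.6% of OPCs. Its level was highest in control vOPCs and lowest in ectopic vOPCs, with a log2 ratio of ectopic to control vOPCs of -0.90 (-1.05 to -0.75) that fell short of 2-fold. Grin3a, an NMDA receptor subunit, was at 166, 185 and 151 CPM with ratios of 5.58, 5.88 and 7.49. By contrast, Gabbr1, a subunit of the GABA B receptor, was at similar levels in OPCs and elsewhere, with ratios of 0.34, 0.61 and 0.02.

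Voltage-gated and potassium channel genes were higher for 13 of 20, 7 of 13 and 14 of 21 genes and lower for 1, 2 and 2, where 13.3%, 9.98% and 15.9% of all genes were higher and 2.51%, 6.3% and 4.96% lower. Their medians were 4.09, 2.23 and 4.51. The channel list held 30 genes, of which the rest did not pass the filter. Kcnip3, a partner of voltage-gated potassium channels, was at 394, 527 and 484 CPM, with ratios of 5.41, 6.87 and 6.31. Kcnk2, named above, was at 169, 233 and 215 CPM. Kcnj10, the inward rectifier Kir4.1, was at 285, 372 and 225 CPM, somewhat below its level elsewhere, with ratios of -0.67, -0.66 and -0.69. Hcn2, a channel activated by hyperpolarization, was at 261, 157 and 89.8 CPM in OPCs and at 832, 965 and 523 CPM elsewhere, past 4-fold in the 2 libraries of ventral cells.

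The extracellular matrix list held 16 of 23, 13 of 20 and 15 of 22 higher genes, against 13.3%, 9.98% and 15.9% of all genes, with medians of 4.47, 4.96 and 5.24. Bcan, the proteoglycan brevican, was at 1714, 2077 and 1687 CPM, Serpine2, a protease inhibitor, at 2388, 2810 and 2520 CPM, and Sparcl1, a matrix protein involved in synapse formation, at 2024, 2544 and 1827 CPM. All 3 were highest in control vOPCs, as was Cspg5. Hapln2, a link protein of nodes of Ranvier, and Adamts4 were lower than elsewhere in each library. Of the adhesion and guidance molecules, 23 of 37, 23 of 37 and 25 of 38 were higher, to be read against the same shares, with medians of 2.70, 3.17 and 3.47. Ntm, a neural adhesion molecule, was at 982, 1647 and 1014 CPM, Cntn1, contactin 1, at 1095, 1132 and 873 CPM, and Opcml, of the same family as Ntm, at 853, 983 and 722 CPM.

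**Figure D3:**
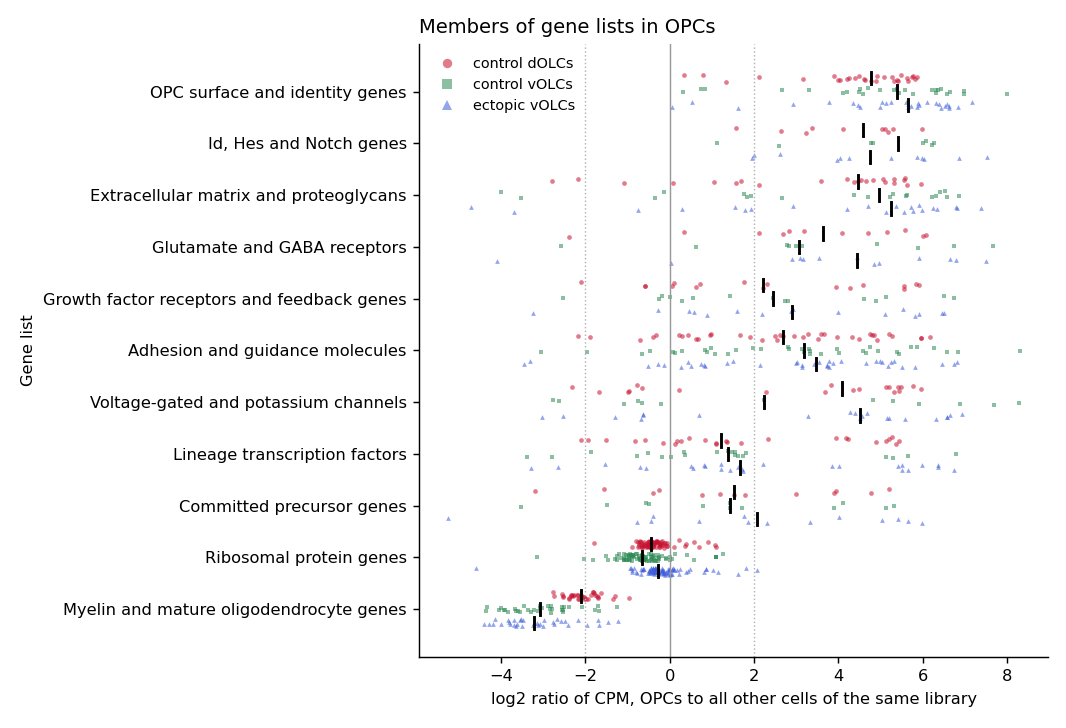
Log2 ratio of CPM in OPCs to CPM in all other cells of the same library, with 1 point per gene of each list and library, black bars at the list medians and dotted lines at 4-fold. OPC surface genes (medians 4.78, 5.40 and 5.66) lie far to the right, and myelin and mature oligodendrocyte genes (medians -2.09, -3.07 and -3.22) to the left, with the control dOPC median nearest to 0.

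Of the genes of the committed precursor stage, 5 of 13, 4 of 12 and 7 of 14 were higher in OPCs, against 13.3%, 9.98% and 15.9% of all genes, and Enpp6 was the 1 lower gene in each library, against 2.51%, 6.3% and 4.96% of all genes. Neu4, a sialidase gene, was at 610, 735 and 576 CPM and was detected in 78.2%, 86.0% and 79.4% of OPCs, against 6.28%, 4.98% and 3.49% of other cells. Gpr17, a receptor that rises as OPCs begin to differentiate, was at 414, 527 and 353 CPM and in 64.1%, 69.4% and 63.0% of OPCs, against 5.11%, 4.35% and 3.63% of other cells. Bmp4, encoding a bone morphogenetic protein, was found in 7.03%, 9.92% and 6.67% of OPCs, against 1.21%, 1.37% and 0.672% of other cells. A UMI of Neu4 or Gpr17 was thus detected in most OPCs, and a UMI of Bmp4 in few. At these depths, a cell without a UMI is not a cell without the transcript.

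Against COP/NFOL/MFOLa, which held 76 cells in control dOLCs and 22 in ectopic vOLCs, 1292 of 6771 genes (19.1%) and 1253 of 4999 genes (25.1%) were at least 2-fold higher in OPCs, and 489 (7.22%) and 345 (6.9%) were lower. Control vOLCs had 13 such cells and were left out, since that library was compared only with clusters of at least 20 cells, a minimum that was not set for the other 2 libraries. Emid1, encoding a protein with an EMI domain, was at 505 CPM in control dOPCs against 12.0 CPM, a log2 ratio of 5.39, and at 441 against 6.69 CPM in ectopic vOLCs, a ratio of 6.04 (3.56 to 11.35) that rests on 1 UMI. Cspg5 had ratios of 5.37 and 5.88, and Pdgfra had a ratio of 5.18 in control dOLCs and of at least 6.08 in ectopic vOLCs, where committed cells held 0 UMIs and the floor of 3 UMIs was used. Enpp6 was at 12.2 against 816 CPM (-6.07, -6.63 to -5.55) and at 1.66 against 1125 CPM (-9.40, -12.46 to -7.53). Frmd4a, a scaffold protein gene, had ratios of -5.07 and -4.79, and Nfasc, which encodes the adhesion molecule neurofascin, of -3.46 and -3.86. Of the committed precursor list, 14 of 19 and 10 of 15 genes were lower in OPCs, Bmp4 among them with ratios of -3.16 and -3.53. Gpr17 differed less, with ratios of -0.76 (-0.94 to -0.59) and -0.26 (-0.64 to 0.15). The ratios of Neu4, at 0.84 (0.61 to 1.08) and 0.34 (-0.02 to 0.72), did not pass 2-fold. The 1 higher gene of the list in both libraries was Sox11, a transcription factor, which rests on 2 UMIs in the committed cells of each and was named after its values were seen, with ratios of 4.05 (2.18 to 7.11) and 1.99 (0.08 to 5.07).

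Against cycling OPCs, of which there were 17 in control dOLCs and 11 in ectopic vOLCs (the 3 of control vOLCs were left out), 329 of 6473 genes (5.08%) and 204 of 4785 genes (4.26%) were lower in OPCs, and 111 (1.71%) and 94 (1.96%) were higher. Top2a, the topoisomerase of dividing cells, was at 5.71 against 1872 CPM in control dOLCs and at 4.16 against 1337 CPM in ectopic vOLCs, with ratios of -8.36 (-9.24 to -7.58) and -8.33 (-10.00 to -7.03). Smc4, a subunit of condensin, had ratios of -4.91 and -4.78, and Smc2, its partner, was at 41.5 against 764 CPM and at 41.6 against 913 CPM. Hmgb2, a chromatin protein gene, had ratios of -4.50 and -4.09. Of the cell cycle list, 12 of 15 and 6 of 8 genes were lower, with 0 higher. The annotation set cycling OPCs apart by the genes of these cells, so these values describe that split and are no test of it. Among the genes higher in OPCs were 4 of 30 and 5 of 29 OPC surface genes and, in ectopic vOLCs, 2 of the 5 markers, Vcan and Lhfpl3, with ratios of 1.13 and 1.08. In control dOLCs 0 of the 5 markers were higher, and Pdgfra, at 1450 against 3010 CPM, and 1 of the 30 surface genes were lower. Of the 6 genes ranked highest by the weaker of both ratios, each rested on 1 or 2 UMIs in cycling OPCs, and Ndufs4, encoding a subunit of mitochondrial complex I, was the 1 gene whose interval excluded no difference in both libraries, at 2.19 (0.32 to 5.24) and 2.18 (0.31 to 5.23).

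Division genes were detected in few cells of the OPC cluster itself. A UMI of Mki67, a marker of dividing cells, was found in 0.938%, 0.826% and 1.21% of OPCs and in 1.66%, 5.35% and 1.93% of other cells. The shares for Top2a were 1.29%, 0 of 121 and 1.21% of OPCs and 0.667%, 0.622% and 0.403% of other cells. By the floor of 3 counts, 0 of 121 cells allows a share of up to 2.48% of cells with a UMI, which does not limit how many cells express the gene. The other cells were the deeper ones, and with every cell thinned to 1000 UMIs Mki67 was in 0.469% of control dOPCs against 0.465% of other cells and in 0.606% of ectopic vOPCs against 0.403%. In control vOLCs it was in 0 of 121 OPCs against 1.37% of other cells, a share within the limit that 0 of 121 allows. No difference in Mki67 between OPCs and other cells is read from these shares. Of the cell cycle list, 0 of 7, 0 of 7 and 0 of 9 genes were 4-fold higher in OPCs than in the other cells, and Stmn1, which regulates microtubules, was lower in the 2 libraries of ventral cells. Immediate early and stress genes were higher for 1 of 18, 0 of 17 and 5 of 20 genes, the 5 being Fos, Ier2, Ier3, Ier5 and Nr4a1 in ectopic vOPCs, and 1 gene, Hspa1a, was lower in control vOPCs. Over all genes, 13.3%, 9.98% and 15.9% were higher, against which 1 of 18, 0 of 17 and 5 of 20 are to be read. Fos, a subunit of the AP-1 transcription factor, was at 208, 177 and 303 CPM in OPCs and 67.3, 81.5 and 59.4 CPM elsewhere. These genes were named after their values were seen, and no gene of the list passed 2-fold between OPCs of any 2 libraries.

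Transcription factors that pattern the forebrain were near the limit of detection. Of 34 listed genes, 18, 21 and 16 had 0 UMIs in OPCs. Those that passed the filter, 3, 2 and 4 genes, were all higher in OPCs than elsewhere, where 13.3%, 9.98% and 15.9% of all genes were. Meis2, a homeobox factor, was at 131, 134 and 105 CPM. Gsx1, a homeobox factor of the ventral telencephalon, was at 31.6, 38.0 and 24.1 CPM in OPCs and at most 0.899 CPM elsewhere, and the log2 ratio of ectopic vOPCs to control dOPCs was -0.39 (-1.05 to 0.24). In OPCs between libraries, Nr2f1, a nuclear receptor that patterns the cortex, was the 1 gene of 4 higher in ectopic vOPCs than in control dOPCs, at 21.7, 27.9 and 45.8 CPM and a ratio of 1.08 (0.51 to 1.64). Over all genes 0.556% were higher in that comparison. Irx1, a homeobox factor, was the 1 gene of 6 higher in control vOPCs than in control dOPCs, against 2.37% of all genes, at 16.0, 40.5 and 25.0 CPM and a ratio of 1.34 (0.41 to 2.20). In the other cells the ratios of Nr2f1 and Irx1 were 0.30 and 0.61, and both genes were named after their values were seen. Emx1, whose locus drives Cre, held 2 UMIs, 0 UMIs and 1 UMI in OPCs, so its transcript could not be used to check the labelled origin.

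Markers of other cell types were sparse, apart from genes that OPCs are known to share. Of the microglia list, 4, 3 and 0 UMIs were counted over 10 genes, and of the pericyte and vascular leptomeningeal list 3, 0 and 1 UMIs over 12 genes. The endothelial list held 159, 45 and 94 UMIs, most of them from Itm2a, a membrane protein gene, while Cldn5, the tight junction gene of endothelium, held 2, 0 and 0. The astrocyte list of 10 genes held 0.0753%, 0.0935% and 0.0786% of OPC UMIs and 0.0269%, 0.0227% and 0.0226% of those of other cells. Of its 3 genes tested, 1, 2 and 1 were 4-fold higher in OPCs, where 13.3%, 9.98% and 15.9% of all genes were. F3, tissue factor, passed in all 3 libraries, at 110, 223 and 145 CPM, and Slc1a2, the glutamate transporter GLT-1, in control vOPCs alone, at 375, 448 and 336 CPM with ratios of 1.96, 2.23 and 1.85. Aldoc, an aldolase, had ratios of 0.65, 1.03 and 1.32, and Aqp4, the water channel of astrocytes, was too low to be tested, at 22.1, 10.1 and 14.1 CPM. By contrast Gfap held 0, 1 and 1 UMIs in OPCs, Gja1 held 3, 0 and 1, and Sox9 held 3, 0 and 0. In the neuron list, which held 0.115%, 0.132% and 0.123% of OPC UMIs and at most 0.00354% of those of other cells, Meg3 dominated. Snap25, a synaptic vesicle fusion gene, was at 60.9, 73.5 and 66.5 CPM, and Gad1, encoding a GABA synthesis enzyme, at 35.8, 40.5 and 30.8 CPM in OPCs and at most 0.587 CPM elsewhere. Neuron-defining genes were nearly absent, with 5, 0 and 0 UMIs of Rbfox3 and 4, 0 and 0 of Slc17a7.

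RNA of mature oligodendrocytes took a larger share of UMIs in control dOPCs than in the other 2 sets of OPCs, by a margin that was smaller without the cells of highest doublet scores. The 35 genes took a share of 2.89% in control dOPCs, 1.55% in control vOPCs and 1.46% in ectopic vOPCs, against 13.8%, 15.7% and 15.5% of the UMIs of the other cells. The median per cell was 2.25%, 1.57% and 1.41%. Single OPCs ranged from 0.949% to 13.0% in control dOLCs, from 0.921% to 2.84% in control vOLCs and from 0.693% to 10.3% in ectopic vOLCs, and 49, 0 and 1 of them exceeded 5%. Most of the control dOPCs above 5% carried high scores from Scrublet, which compares each cell with simulated pairs of cells. Scrublet marked 0.190% of control dOLCs, too few for its calls to be relied on, and no cell was left out. Among the 6% of cells with the highest scores in each library were 43, 0 and 2 OPCs. The 43 control dOPCs had a median of 5569 UMIs against 2735.5 in the other 810, held 9.08% (8.97 to 9.20) of mature RNA against 2.27% (2.25 to 2.29), and had 3537 against 7025 CPM of the 5 markers. All 43 had at least 3 markers. Without the highest scores, the 3 libraries stood at 2.27%, 1.55% and 1.41%, so that control dOPCs remained above the other 2. The part of free RNA from lysed oligodendrocytes and of joined cells in these values was not tested.

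**Figure D4:**
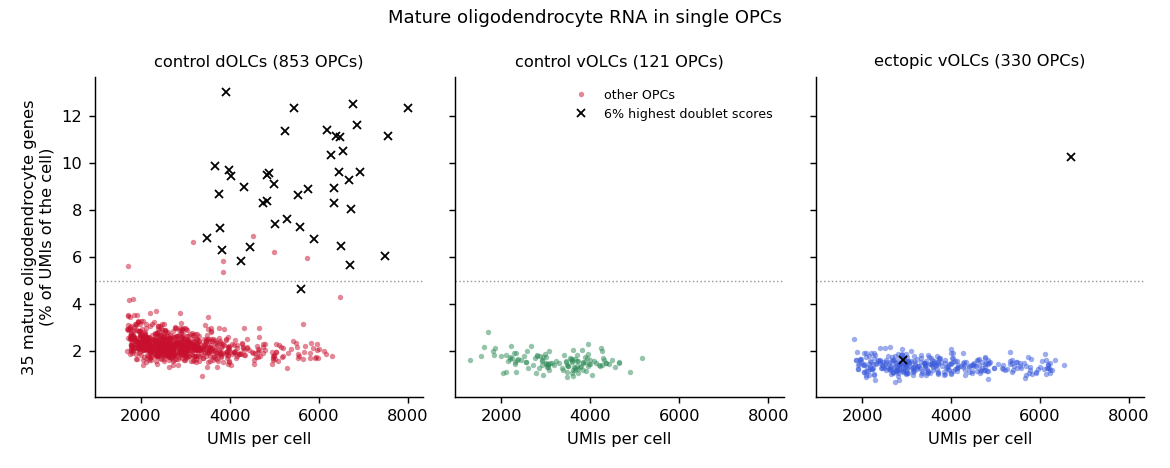
Share of UMIs from 35 mature oligodendrocyte genes against UMIs per cell in single OPCs of each library. Crosses mark OPCs among the 6% of cells with the highest Scrublet scores of their library, and the dotted line stands at 5%. In control dOLCs 49 of 853 OPCs lie above it, 42 of them crosses, against 0 of 121 in control vOLCs and 1 of 330 in ectopic vOLCs.

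Between libraries, OPCs were compared gene by gene at a fold of 2 with an interval that excluded no difference. The 3 comparisons share libraries, so they are not independent of each other. In ectopic vOPCs against control dOPCs, 34 of 6110 genes (0.556%) were higher and 117 (1.91%) lower. In ectopic against control vOPCs, 284 of 5721 genes (4.96%) were higher and 105 (1.84%) lower, and in control vOPCs against control dOPCs, 139 of 5863 genes (2.37%) were higher and 157 (2.68%) lower. The medians over all genes were 0.08, 0.04 and 0.03. With TMM factors the counts in the third comparison were 98 higher and 214 lower, a share of higher genes of 31.4% against 47.0%. With 1 library a condition, the effects of origin, of ablation and of the library cannot be told apart.

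Many genes lower in ectopic vOPCs than in control dOPCs were genes of other clusters. Of the 117, 43 (36.8%) were at least 4-fold lower in OPCs than in other cells of control dOLCs, against 71 of the 6110 genes measured (1.16%). In control vOPCs against control dOPCs these were 27 of 157 lower genes (17.2%), and in ectopic against control vOPCs 1 of 105 (0.952%). In the mature oligodendrocyte list, ectopic vOPCs were lower than control dOPCs for 16 of 34 genes with a median of -0.89, control vOPCs lower for 12 and higher for 1 of 35 genes with a median of -0.90, and ectopic vOPCs differed from control vOPCs for 0 of 32 genes with a median of -0.08. Without the cells of highest doublet scores, the lower genes of the list numbered 7 of 33 and 2 of 34, with medians of -0.66 and -0.57, and the lower genes over all in ectopic against control dOPCs numbered 60 instead of 117. The 1 higher gene was Klk6, a protease of mature oligodendrocytes, at 1.21 (0.48 to 1.90) in OPCs and 2.17 (2.08 to 2.26) in the other cells of the same libraries.

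A set of 463 genes passed the filter and was 4-fold higher in OPCs in every library, which leaves out genes too low to be tested in 1 of them, such as Gm26870 described below. In ectopic vOPCs against control dOPCs, 0 of the 463 were higher and 1 was lower, against 0.556% and 1.91% of all genes, with a median log2 ratio of 0.04. The 1 gene was PISD, annotated as a phosphatidylserine decarboxylase sequence, at 347, 448 and 165 CPM. It was also lower in the other ectopic cells, with a log2 ratio of -1.38 to control dOLCs, and because near-identical copies exist its reads are uncertain. Against control vOPCs, 2 of the 463 genes were higher and 17 lower in ectopic vOPCs, against 4.96% and 1.84% of all genes, with a median of -0.30. Control vOPCs were higher than control dOPCs for 18 and lower for 0 of the 463 genes, against 2.37% and 2.68% of all genes, with a median of 0.32. Of those 18 genes, whose ratios ran from 1.01 to 1.76, 9 lost the fold with TMM factors, 8 without the highest Scrublet scores and 8 after thinning, Sema5b and Nlgn3 among them each time, whereas of the 17 lower in ectopic than in control vOPCs these were 1, 0 and 6. The ratios of the 18 genes then ran from 0.93 to 1.69, from 0.94 to 1.66 and from 0.44 to 1.66, so that all kept their direction, whereas 1 of the 17, Xylt2, a xylosyltransferase gene, turned after thinning, to 0.46. In all, 28 of the 463 genes passed 2-fold between some pair of libraries. Control vOPCs had the highest level for 26 of the 28 and ectopic vOPCs for the other 2, and the lowest level was in ectopic vOPCs for 16 and in control dOPCs for 10.

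Vegfa, the vascular endothelial growth factor, was at 190, 555 and 123 CPM. Its log2 ratio was -2.17 (-2.48 to -1.86) in ectopic against control vOPCs and 1.54 (1.31 to 1.77) in control vOPCs against control dOPCs. In the other cells the same ratios were -1.11 and 0.64, in the same direction and smaller. Adm, which like Vegfa acts on vessels, was at 76.9, 185 and 57.4 CPM, with ratios of -1.69 (-2.18 to -1.19) and 1.27 (0.86 to 1.66). Among guidance genes, Ephb3, an ephrin receptor, was at 42.7, 144 and 51.6 CPM, with ratios of -1.49 and 1.76, and Sema5b, a semaphorin, at 60.6, 122 and 39.9 CPM, with ratios of -1.61 and 1.01. All 4 genes had non-overlapping intervals between control vOPCs and each of the other 2.

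Control vOPCs were highest for the following genes too. Grid1, a glutamate receptor subunit of the delta family, was at 121, 269 and 106 CPM, Csmd1, a membrane protein with complement-binding domains, at 199, 426 and 175 CPM, and Nlgn3, the postsynaptic neuroligin 3, at 374, 755 and 428 CPM. Slitrk1, a synaptic adhesion molecule, was at 56.0, 117 and 52.4 CPM, and Astn2, which takes part in the migration of neurons on glia, at 51.0, 124 and 50.7 CPM. Control dOPCs and ectopic vOPCs lay within 0.20 of each other on the log2 scale for all 5, whereas control vOPCs lay above both. Xylt1, the xylosyltransferase that starts the chain, was at 502, 1018 and 613 CPM, and Chst2, a carbohydrate sulfotransferase, at 131, 251 and 117 CPM. Bex2 and Ppp1r14b went the other way. Bex2, a gene of the brain-expressed X-linked family, was at 192, 119 and 311 CPM, and Ppp1r14b, a phosphatase inhibitor, at 111, 76.0 and 186 CPM.

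**Figure D5:**
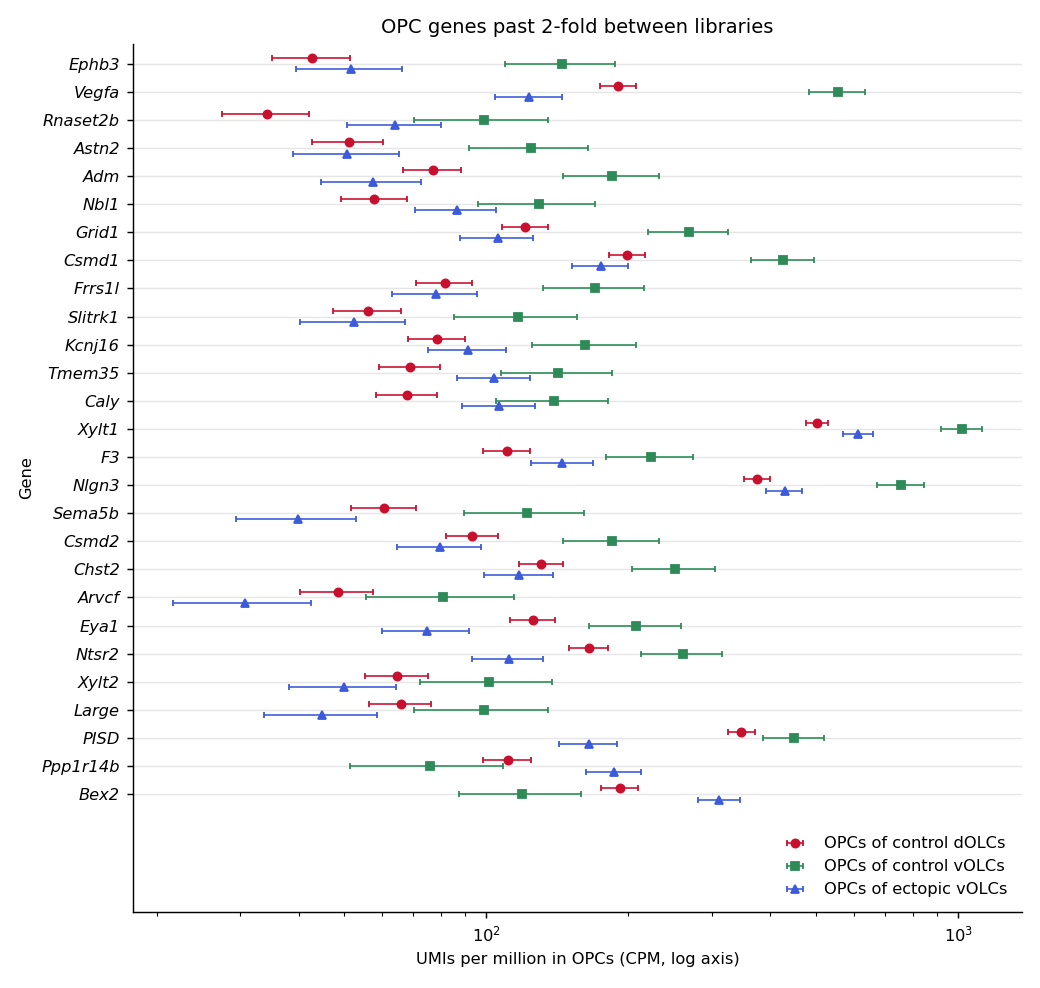
Level in OPCs of each library (CPM, log axis, 95% counting intervals) of 27 of the 28 genes that were at least 4-fold higher in OPCs than in other cells in all 3 libraries and passed 2-fold between some pair of libraries. Control vOPCs (green squares) are highest for 25 of the genes drawn, such as Vegfa (190, 555 and 123 CPM), and ectopic vOPCs for Bex2 and Ppp1r14b.

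Ectopic vOPCs differed from both controls in the same direction for 13 higher and 12 lower genes. Singly, 0.556% of all genes were higher and 1.91% lower against control dOPCs, and 4.96% and 1.84% against control vOPCs. Both ratios use the same ectopic library, so a shared direction is partly built in. Fgfr2, introduced above as low in OPCs, was at 76.6, 55.7 and 27.4 CPM, with ratios of -1.48 (-2.06 to -0.94) to control dOPCs and -1.02 (-1.84 to -0.17) to control vOPCs. The corresponding ratios in the other cells were -0.34 and -0.29, and with TMM factors the second ratio in OPCs was -0.95, short of 2-fold. Igfbp2, which binds insulin-like growth factors, was at 45.7, 98.8 and 20.8 CPM, with ratios of -1.14 and -2.25 in OPCs and -0.43 and -0.59 elsewhere. Abca2, a lipid transporter of oligodendrocytes, was at 204, 144 and 69.0 CPM, and Acp1, a phosphatase, at 168, 177 and 78.2 CPM, the latter with ratios of -0.05 and -0.09 in the other cells. On the higher side, Gm26870, a predicted gene, was at 4.19, 5.07 and 1351 CPM, with ratios of 8.33 (7.49 to 9.34) and 8.06 (6.20 to 11.11) in OPCs and of 4.60 and 3.98 elsewhere. It was in 85.2% of ectopic vOPCs and 2.64% of the other ectopic cells, and rests on 11 and 2 UMIs in the control OPCs. Snhg11, a host gene of small nucleolar RNA, was at 8.38 CPM in control dOPCs, at 3 UMIs in control vOPCs and at 151 CPM in ectopic vOPCs, with ratios of 4.18 and 4.32 (2.75 to 6.61) in OPCs and of 2.32 and 2.23 elsewhere. Tubb3, a neuronal tubulin, was at 12.2, 10.1 and 131 CPM, with ratios of 3.42 and 3.69 in OPCs and of 3.78 and 3.19 elsewhere, and Meox1, a homeobox factor, at 8.00, 10.1 (4 UMIs) and 49.1 CPM, with ratios of 2.62 and 2.28 in OPCs and of 1.97 and 1.77 elsewhere. These 4 genes had the highest ratios to control dOPCs of the 13. With smaller ratios, Nap1l1, a histone chaperone, was at 136, 139 and 363 CPM, with ratios of 1.41 (1.21 to 1.62) and 1.38 (0.97 to 1.81) in OPCs and of 0.25 and 0.13 elsewhere. Pnlip, annotated as pancreatic lipase, was at 90.3, 73.5 and 198 CPM in OPCs and was above the other cells in each library, with ratios of 5.02, 8.35 (5.76 to 13.70, from 1 UMI in the other cells) and 5.73. Vasp, which promotes actin filament growth, was at 18.3, 15.2 and 40.8 CPM. Apart from Fgfr2, these genes were chosen after their values were seen.

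Few members of the remaining lists passed 2-fold. Nkx6-2, a homeobox factor of oligodendrocytes, was at 171, 60.8 and 67.4 CPM, with ratios to control dOPCs of -1.49 in control vOPCs and -1.34 in ectopic vOPCs. In the other cells those ratios were -0.04 and 0.02. Hapln2, at 145, 53.2 and 45.8 CPM, and Stmn1, at 890, 395 and 414 CPM, were also highest in control dOPCs, and both are more abundant in oligodendrocytes than in OPCs. Hes6, an antagonist of Hes1, was at 43.4, 20.3 and 60.7 CPM, and Gabra2, a GABA A receptor subunit, at 32.0, 68.4 and 27.4 CPM. These genes were named after their values were seen.

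Ribosomal protein genes took 3.71%, 2.51% and 4.39% of OPC UMIs and 4.81%, 3.83% and 5.09% of those of other cells, so that control vOLCs were lowest and ectopic vOLCs highest in both. In ectopic against control vOPCs, 17 of 89 were higher and 1 lower, against 4.96% and 1.84% of all genes, with a median of 0.81, whereas against control dOPCs the median was 0.24 and 1 gene was higher. In control vOPCs against control dOPCs, 8 of 90 were higher and 5 lower, against 2.37% and 2.68% of all genes, with a median of -0.57. This list was drawn by symbol and also holds processed copies and ribosomal protein kinases, whose reads may belong to another gene. Rps14 was at 833, 370 and 826 CPM, and Rpl13 at 2564, 2034 and 3954 CPM. Transcript length moved with these calls. Genes higher in ectopic than in control vOPCs had a median longest transcript of 1992 bases and the lower genes of 4816 bases, against 3272 bases over all genes compared, and the part of length in the result was not tested. Against control dOPCs the medians were 1923.5, 4125.5 and 3288.5 bases.

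The spread among OPCs of a library was measured gene by gene. The variance of Pearson residuals, which is 1 where counts follow the total of each cell, had a median of 1.04, 1.05 and 1.03 over genes, most of which had too few UMIs per cell to show more than counting noise, and exceeded 2 for 49, 33 and 43 genes. The nuclear noncoding RNA Malat1 led, with 64.1, 62.6 and 85.7, at a median of 322, 370 and 365.5 UMIs per OPC. For a given relative spread this variance grows with the UMIs per cell, so the ranking favours abundant transcripts. Apoe, the lipid carrier apolipoprotein E, had 7.89, 5.96 and 9.36, with a median of 32, 40 and 38 UMIs per OPC. Mitochondrial genes were 6 of the 12 genes with the highest variance in all 3 libraries, and their list had a median of 2.81, 2.92 and 2.58. Against other cells, 0 of the 12, 13 and 12 mitochondrial genes tested passed 4-fold, with medians of -0.41, -0.41 and -0.48. Over all genes, 13.3%, 9.98% and 15.9% were higher and 2.51%, 6.3% and 4.96% lower, with medians of 0.34, 0.27 and 0.57. Jun, the AP-1 subunit, had 3.63, 3.01 and 10.1. It was detected in 40.7%, 42.1% and 51.5% of OPCs, and the tenth of OPCs with the most Jun held 55.9%, 53.8% and 59.6% of its UMIs. Rpl13, with 3.38, 2.42 and 5.30, had a median of 6, 5 and 10 UMIs per OPC and a maximum of 56, 23 and 76. The 5 OPC markers had a median of 1.45, 1.71 and 1.63. The mature oligodendrocyte list had a median of 1.45 in control dOPCs, 1.06 in control vOPCs and 1.13 in ectopic vOPCs.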

How the data were processed

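Adult OLCs of 3 libraries were profiled by droplet single-cell RNA sequencing. The submitters' processing notes name Cell Ranger 2.1.1, Seurat 3 and 4.0, and mm10; strand and annotation release are not given in the sources used here. The authors deposited raw UMI counts for 27998 genes, listed by symbol, and an annotation with library, cluster and mitochondrial percent per cell, from cells with over 200 and under 3000 genes and at most 15% mitochondrial counts. Of its columns, 7 were not used. The 4 samples whose labels give no group were not analysed here, and a few genes named by the rule below are not reported here.

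UMI counts were summed over the cells of a cluster and library and scaled to CPM. Genes needed at least 50 UMIs and a UMI in at least 10% of cells of one side. A call needed 4-fold (OPCs to other cells) or 2-fold and a conditional exact binomial interval at 95% that excluded no difference. Shares have Clopper-Pearson intervals. Where a side had 0 UMIs, a floor of 3 counts was used. Depth ran from 394731 to 2625452 UMIs over OPCs. No doublets were removed.

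The members and lists were chosen with earlier results of these data known. Genes named were the 5 markers, the 20 highest and 8 lowest against other cells, list members past the fold against both controls or else up to 4 with the most UMIs, the 6 highest and lowest against each neighbouring cluster, OPC genes past 2-fold between libraries, the 12 most variable genes, Sox10 and Emx1. Alternatives were TMM and median-of-ratios factors, no filter beyond 1 UMI, thinning to 1000 UMIs, leaving out the 6% highest Scrublet scores, a 10% mitochondrial limit and other choices of the comparison cells. On simulated data, 100% of 200 changed genes were recovered for ectopic against control dOPCs over 5220 genes, with an interval coverage of 96.0%. Recovery of genes close to the 2-fold limit was not tested separately. Transcript lengths came from GENCODE. Tools were Python 3.11.15, numpy 2.4.6, scipy 1.17.1, pandas 2.3.3, scanpy 1.11.5, matplotlib 3.10.9, R 4.3.3, edgeR 4.0.16 and DESeq2 1.42.0.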

Additional observations from a re-analysis of the deposited data

How the results depend on the processing

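No paired analysis was possible because the 3 conditions had a single library each. Of the alternatives to values that answer a comparison, 49 stayed within their limits and 35 moved. With a limit of 10% mitochondrial counts, OPCs were 16.9% of control dOLCs and 14.6% of ectopic vOLCs. The log2 ratio of summed markers, 5.75, 6.62 and 6.66 in the order control dOLCs, control vOLCs, ectopic vOLCs, was 6.24, 7.37 and 7.36 without cycling and committed cells, 2.73, 2.59 and 3.26 with equal weight to each other cluster, and 6.04 and 6.44 in the latter 2 libraries after thinning. At equal weight, the few cycling OPCs, with 8735, 12249 and 6113 CPM of the markers, count as much as any other cluster. Without a filter, genes higher in OPCs than elsewhere numbered 2872, 2427 and 3147, and lower genes 250 in control dOLCs. TMM factors gave 415, 705 and 621 lower genes and 407 higher in control vOLCs, and median-of-ratios factors 419, 698 and 621 lower and 412 higher. Between libraries without a filter, ectopic to control dOPCs gave 201 higher and 325 lower, ectopic to control vOPCs 382 lower, and control vOPCs to control dOPCs 353 higher. Thinned cells gave 19 and 43, 93 and 30, and 65 and 63 higher and lower genes, from fewer genes past the filter. Without the highest Scrublet scores, 60 genes were lower in ectopic than in control dOPCs, and mature RNA was 2.27% of control dOPC and 1.41% of ectopic vOPC UMIs.

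Of the values for single named genes, 1496 stayed on their side of the fold, 99 lost it and 1 turned: Xylt2, a xylosyltransferase, had a log2 ratio of 0.46 in ectopic to control vOPCs after thinning. The cause was not tested. Control vOPCs, with 121 cells, limit the precision of every comparison that includes them. Genes with few UMIs on both sides did not pass the filter, and ratios that rest on few UMIs on 1 side have wide intervals.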
